A study of Mus musculus with 6 samples.

Results

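Regions with a Grhl3 peak in adult mouse epidermis after both of 2 injuries, but without a reproducible peak in embryonic skin, were described by their peaks in 4 chromatin immunoprecipitation (ChIP-seq) libraries for this transcription factor. A replicate 1 peak of E16.5 skin was called reproducible when a replicate 2 peak overlapped it. Reproducible peaks were merged with the depilation and imiquimod peaks where they overlapped or touched. Autosomal regions were kept when they held a depilation and an imiquimod peak and no reproducible E16.5 peak. There were 454 such regions among 12894 autosomal regions, or 3.52%, and 13035 regions over all chromosomes. Of the 454, 345 carried a peak in E16.5 replicate 1 alone, 42 in replicate 2 alone and 67 in neither replicate. Another 748 autosomal regions held peaks in all 3 conditions. The regions were chosen by the presence or absence of a peak in each list, so their counts, scores and shapes are descriptions without a test.

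The libraries compared were 2 Grhl3 replicates from E16.5 back skin, taken as whole skin, and 1 Grhl3 library each from adult epidermis at day 4 of depilation and from adult epidermis after imiquimod. All used a custom antibody to Grhl3. Adult epidermis was separated from dermis with dispase, and the embryonic samples were not, so tissue, age and treatment change together. Strain, genotype, sex, number of animals and imiquimod schedule were not given in the sources used here. Signal in an E16.5 and an adult input without antibody, also listed in the labels, was not analysed here. Total reads per library are unknown. The lists held 11619 peaks (E16.5 replicate 1), 9685 (replicate 2), 4820 (depilation) and 7974 (imiquimod), and each adult condition has 1 library, so no adult result has a replicate check.

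Grhl3 belongs to the grainyhead-like family of DNA-binding factors, which direct the building and repair of surface epithelia across animals. In mouse skin it is needed for the epidermal barrier to form late in gestation, through genes of the cornified envelope, lipid processing and cell junctions, and it acts in closure of the neural tube and of wounds. Depilation plucks the hair, injures the epidermis and starts a new hair cycle. Imiquimod is an agonist of Toll-like receptors that raises a psoriasis-like inflammation with epidermal thickening. A physical and an immune injury both call for barrier repair, and the comparison with E16.5 asks which regions with Grhl3 peaks after both are also found while the barrier first forms.

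Most regions shared by the injuries without a reproducible E16.5 peak still had a peak in embryonic skin, in a single replicate. This held for 387 of 454, or 85.2% (exact 95% binomial interval 81.6 to 88.4, covering counting error only, as do all intervals below). Over all 9199 autosomal regions without a reproducible E16.5 peak, 16.1% had a peak in a replicate. The split by replicate was uneven. Replicate 1 supplied the peak in 345 regions, 76.0% (71.8 to 79.9) of the 454, beside 13.4% of all regions without a reproducible peak. Replicate 2 supplied it in 42, or 9.25% (6.75 to 12.3), beside 2.66%. With peaks above the highest imiquimod score left out of every list, there were 519 regions. Of these, 66.5% (62.2 to 70.5) had a replicate 1 peak and 19.5% (16.1 to 23.1) a replicate 2 peak. This limit drops high replicate 1 peaks, so regions in all 3 conditions can enter the set with a replicate 2 peak alone. It also sets 1 score limit for lists that need not share a scale. The replicate lists also differ in width: the median peak was 445 bp wide in replicate 1 and 232 bp in replicate 2. The part of peak width in the split was not tested. No E16.5 peak was found in 67 regions, 14.8% (11.6 to 18.4). Taking any replicate 1 peak as embryonic, without replicate 2, left 109 regions in place of 454, the 42 and 67 without a replicate 1 peak. Taking any replicate 2 peak, without replicate 1, left 435. With imiquimod peaks of an FDR of 5% or less there were 300 regions, 38 of them with no E16.5 peak. In that list FDR did not simply fall with score. The highest score, 249.45, had an FDR of 10%, so this limit also drops peaks of high score. Counted over all 1202 autosomal regions with depilation and imiquimod peaks, an E16.5 peak of either replicate was present in 94.4% (93.0 to 95.7), against 37.3% (35.7 to 39.0) of the 3356 with a depilation peak but no imiquimod peak and 16.8% (15.9 to 17.7) of the 6663 with an imiquimod peak but no depilation peak.

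The share with an embryonic peak stayed high at every adult score. Scores were turned into percentiles within each list, because the labels do not say what the score measures and the lists need not share a scale. Among the 45 shared regions at imiquimod percentiles up to 25, 75.6% (60.5 to 87.1) had a peak in 1 E16.5 replicate. Of 1829 regions of imiquimod alone at those percentiles, 3.23% (2.46 to 4.14) did. Above percentile 75 the shares were 91.3% (86.9 to 94.6) of 230 and 21.3% (18.8 to 24.1) of 979. Ranked by depilation score, percentiles up to 25 gave 87.5% (75.9 to 94.8) of 56 shared regions and 10.8% (8.86 to 13) of 907 of depilation alone. Percentiles above 75 gave 91.2% (86.5 to 94.7) of 205 and 57.7% (51.9 to 63.2) of 307. The intervals of the shared regions and of the regions in a single adult list did not overlap in any of the 4 score bins of either list. Regions of depilation alone with high scores came closest. The bins do not match region width, whose median was 392 bp in the shared regions, 182 bp in depilation alone and 250 bp in imiquimod alone. The part of region width in these shares was not tested.

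**Figure D1:**
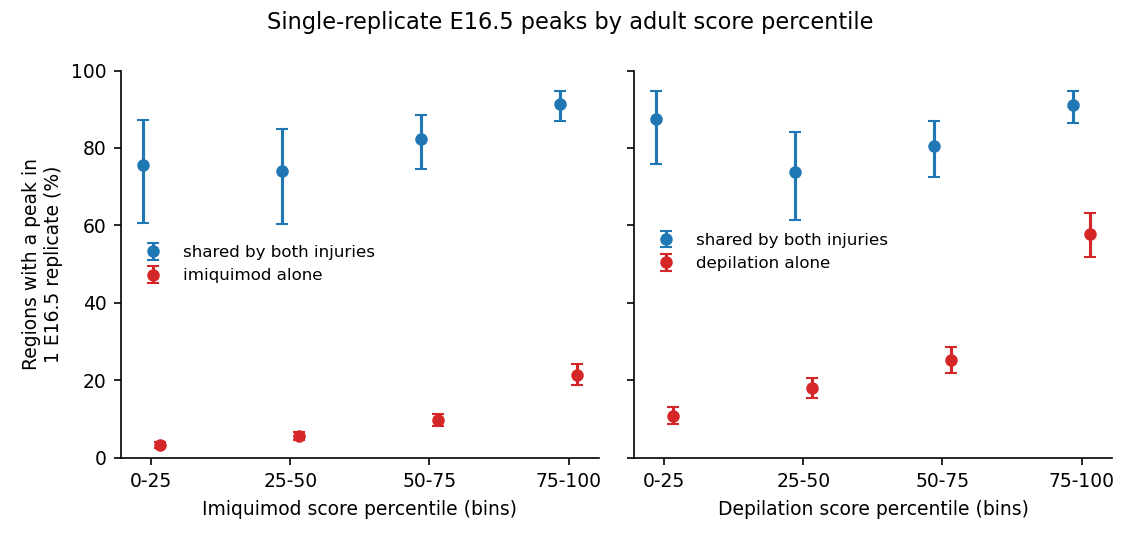
Share of regions with a peak in 1 E16.5 replicate (y axis, %) by bin of the imiquimod (left) or depilation (right) score percentile (x axis), for the regions shared by both injuries (blue) and those of 1 injury alone (red); bars are exact 95% binomial intervals. The blue points lie between 73.8% and 91.3% and the red ones between 3.23% and 57.7%.

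In the adult lists the shared regions ranked well above the middle. Their depilation scores ran from 50.1 to 831.94 with a median of 73.24, and the median percentile was 71.59 (interval of the median 66.93 to 74.92). Their imiquimod scores ran from 52.38 to 246.47 with a median of 100.32, and the median percentile was 75.64 (71.24 to 77.73). Regions in all 3 conditions stood somewhat higher, with median percentiles of 76.97 for depilation (75 to 79.08) and 82.08 for imiquimod (80.39 to 83.75). Regions of depilation alone had a median of 37.98, and regions of imiquimod alone 41.51. The regions without a reproducible E16.5 peak thus lay between these classes and nearer to the regions in all 3.

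Among regions with a peak after both injuries, rank in one told little of rank in the other. Peaks of 1 adult list alone, which ranked lower, do not enter this relation. Across the 454 regions, Spearman's rho between the depilation and imiquimod scores was 0.1 and Pearson's r of the log10 scores 0.08. In the 748 regions in all 3 conditions these were 0.14 and 0.12. All points of such a relation come from the same pair of libraries. In 23 regions, or 5.07% (3.24 to 7.5), both percentiles exceeded 90, and 19 of these had a replicate 1 peak. In 30 regions, 6.61% (4.5 to 9.3), both lay below 50.

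**Figure D2:**
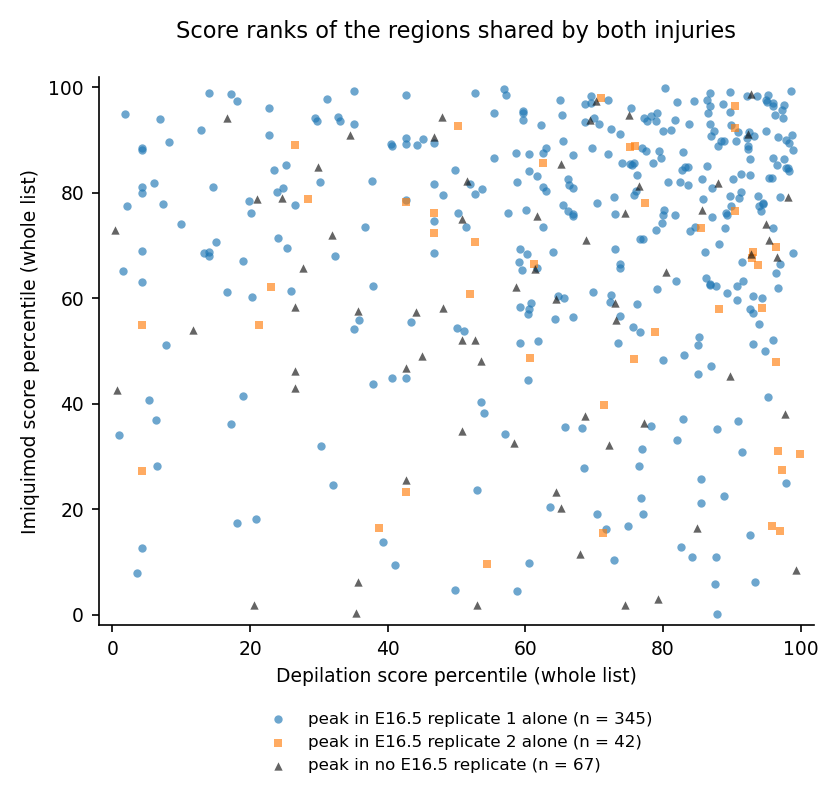
Depilation (x axis) and imiquimod (y axis) score percentile of each of the 454 regions, within the whole list, marked by the E16.5 peaks they hold. Points fill the plane with more in the upper right, where 23 regions exceed 90 on both axes.

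The embryonic status of a region went with its adult rank. Regions were ordered by the mean of their adult percentiles and cut into 4 bins of equal size. No E16.5 peak was found in 26.3% (18.5 to 35.4) of the lowest bin, 14.2% (8.32 to 22.0) of the next, 10.6% (5.61 to 17.8) of the third and 7.89% (3.67 to 14.5) of the highest. A replicate 1 peak was found in 66.7% (57.2 to 75.2), 70.8% (61.5 to 79.0), 79.6% (71.0 to 86.6) and 86.8% (79.2 to 92.4) in the same order. Replicate 2 alone showed no such order, with 7.02%, 15.0%, 9.73% and 5.26%. The median mean percentile was 71.57 with a replicate 1 peak, 63.13 with a replicate 2 peak and 53.95 with none.

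The replicate 1 peaks under these regions were well scored and broad. There were 344 distinct peaks under the 345 regions. Of these peaks, 4 each lay under 2 regions, so those 8 regions are not independent, and 3 regions each held 2 peaks. Their median score was 105.3 (percentile 76.31) and their median width 728 bp. All 7731 autosomal replicate 1 peaks missing from replicate 2 had a median score of 61.07 (percentile 37.49) and a width of 340 bp. Replicate 1 peaks on other regions with adult peaks were likewise above these values. The medians were 92.69 and 636.5 bp on regions of depilation alone, 92.91 and 662.5 bp on regions of imiquimod alone and 140.74 and 864 bp on regions in all 3 conditions. In the best decile of the list lay 75 of the 344, or 21.8% (17.6 to 26.5), and in the lowest decile 4, or 1.16% (0.318 to 2.95). The 344 were 4.45% (4.0 to 4.93) of the unmatched replicate 1 peaks. The best replicate 1 scores were 281.31 at chr4:58924726-58925108, 278.48 at chr11:57822944-57823381 and 246.9 at chr6:147039990-147040326. The adult scores there were moderate, 75.33 and 84.92 (depilation and imiquimod) at the first, 60.34 and 124.16 at the second and 66.5 and 70.55 at the third. The nearest replicate 2 peaks lay 90743, 206917 and 87085 bp away.

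Replicate 2 peaks under the regions ranked lower within their list than the replicate 1 peaks did within theirs, but above unmatched replicate 2 peaks as a whole. The median score of the 42 was 66.03, with a lowest value of 50.63 and a highest of 186.17, at a median percentile of 54.7. Of the unmatched replicate 2 peaks, 0.739% (0.531 to 1.0) lay on these regions, 41 of 5547. These 41 had a median score of 66.84 (percentile 56.3) and a median width of 423 bp. All 5547 had 59.49 (percentile 39.43) and 189 bp. The remaining one of the 42 did overlap a replicate 1 peak, but outside the region. It lay at chr13:108679849-108680314 with a score of 50.63, reached the replicate 1 peak at chr13:108678624-108679869 (115.68) and also covered part of the region chr13:108679918-108680348, which scored 59.49 after depilation and 101.7 after imiquimod.

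Few regions with a peak in 1 replicate had a peak of the other within 1 kb. A replicate 2 peak that overlaps the replicate 1 peak of a region removes the region, so the rule takes out the closest cases. From the 345 regions with a replicate 1 peak, the median distance to the nearest replicate 2 peak was 63.4 kb (quartiles 26.2 and 145 kb), and 23 regions, 6.67% (4.27 to 9.84), had one within 1 kb. From the 42 with a replicate 2 peak, the nearest replicate 1 peak lay at a median of 24.2 kb, and within 1 kb for 6, or 14.3% (5.43 to 28.5). No like share was computed for regions of 1 injury alone with a peak in 1 replicate. Whether reads too few to be called stood at these places in the other replicate cannot be read from peak lists.

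The depilation and imiquimod peaks of a region were nearly centred on each other. Centres of the depilation and imiquimod peaks were a median of 50.25 bp apart (interval of the median 44.5 to 55.5), with a maximum of 339 bp, while the peaks had median widths of 256.5 and 350.5 bp. Overlap is part of the rule, so this is a description. The imiquimod summit, the position of highest signal in that list, is not named in the rule. It lies inside the imiquimod peak, however, which has to overlap the depilation peak. Where a region held a single depilation and a single imiquimod peak, the summit fell inside the depilation peak in 356 of 441 regions, 80.7% (76.7 to 84.3). The median overlap was 234 bp and the median imiquimod width 351 bp in these regions, so a summit inside is likely from the overlap alone. In the 555 regions of all 3 conditions with the same arrangement it did in 76.2% (72.4 to 79.7), and the intervals overlap. By embryonic status the share was 76.6% (71.7 to 81.0) with a replicate 1 peak, 92.9% (80.5 to 98.5) with a replicate 2 peak and 93.9% (85.2 to 98.3) with none. Median imiquimod widths over all regions of each status were 363, 333 and 305 bp in the same order. The part of peak width in these shares was not tested.

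Embryonic peaks mostly covered the same summit, as their width and the overlap that defines the split nearly require. The summit lay inside the replicate 1 peak in 344 of 345 regions, 99.7% (98.4 to 100), and in 745 of the 748 regions in all 3 conditions, 99.6% (98.8 to 99.9). It lay inside the replicate 2 peak in 39 of 42, 92.9% (80.5 to 98.5). Replicate 1 peaks were broad, with a median of 735 bp counting the best peak of each region, and at 250 bp on either side of the summit they still covered 76.5% and 75.9% of the 345 regions. The imiquimod peaks covered 22.6% and 19.4% there and the depilation peaks 19.7% and 17.4%. In regions in all 3 conditions, replicate 1 peaks covered more at these distances, 83.6% and 84.4%. Replicate 2 peaks covered 0 of these 345 summits, as the rule requires of the region.

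**Figure D3:**
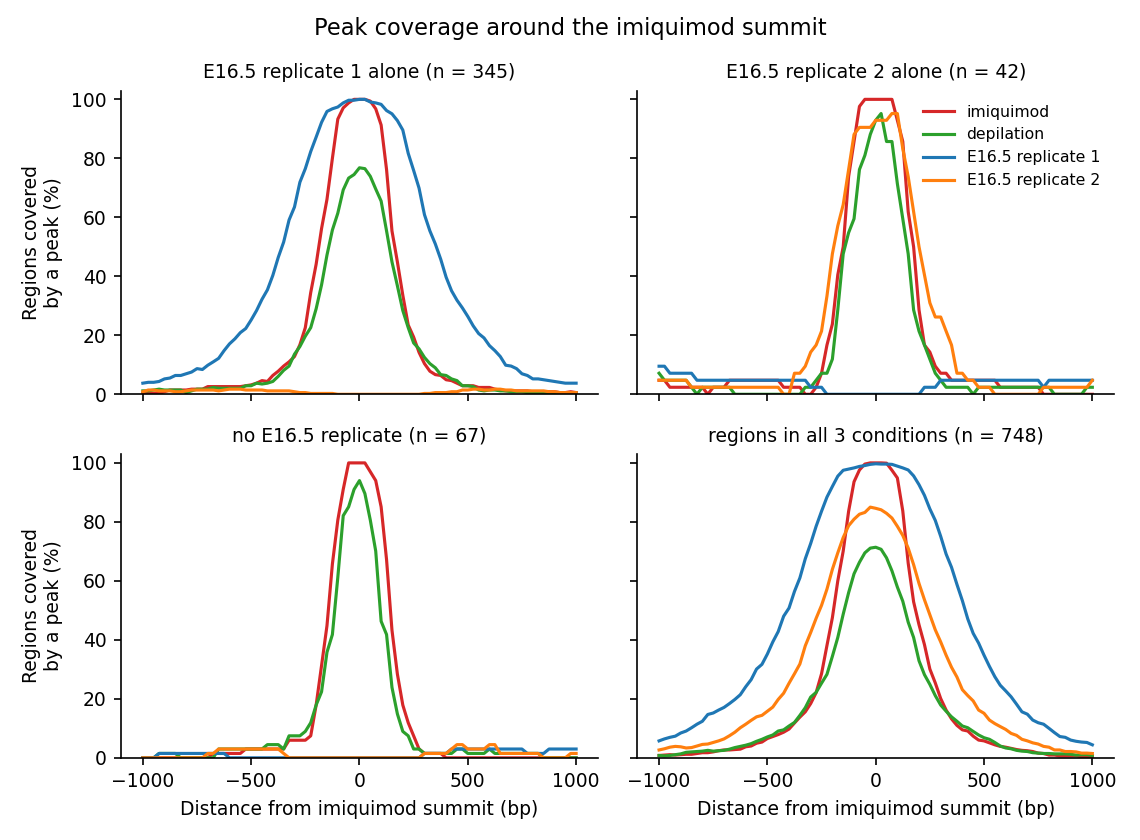
Share of regions (y axis, %) covered by a peak of each list at each distance from the imiquimod summit (x axis, bp), for the regions with a peak in E16.5 replicate 1 alone, replicate 2 alone or neither, and for regions in all 3 conditions. Replicate 1 coverage is the broadest in the first panel (76.5% at 250 bp to the left), and in the third panel the 2 adult lists alone cover the summit.

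The 10 best ranked regions with an embryonic peak all had it in replicate 1, which supplied 345 of the 387, or 89.1% (85.6 to 92.1), at any rank. The first by mean adult percentile was chr4:101092529-101093145, which scored 98.07 in replicate 1, 188.97 after depilation and 230.7 after imiquimod, where it held 66 tags at 12.44-fold enrichment. Replicate 2 had its nearest peak 63278 bp away. The region chr11:33047178-33047688 scored 141.66, 157.96 and 192.52 in the same order, and chr19:36131763-36132238 scored 114.31, 127.35 and 216.42. At chr7:89078883-89079279 the scores were 135.23, 149.82 and 184.28. The region chr4:116136354-116136941 had the highest replicate 1 score of the 10, 238.61, with 131.91 after depilation and 196.3 after imiquimod. All 5 exceeded percentile 95 in each adult list, and their replicate 1 percentiles ran from 72.84 to 98.27.

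The other 5 of the 10 were also high in both adult lists, which follows from their choice by mean adult percentile. Their replicate 1 scores, which the choice did not use, ran from 74.26 to 177.18. The region chr6:28165298-28165782 scored 136.81 in replicate 1, 125.85 after depilation and 204.09 after imiquimod, and chr7:31911574-31911941 scored 177.18, 116.26 and 215.89. At chr7:87546929-87547955, the widest of the 10 at 1027 bp, the scores were 134.43, 126.84 and 198.73, with 121 tags at 4.43-fold. The regions chr18:54021924-54022483 and chr1:169214681-169215168 had the lowest replicate 1 scores, 74.26 and 93.12, with 132.45 and 154.17 after depilation and 190.63 and 172.24 after imiquimod. The chr18 region had the nearest replicate 2 peak of the 10, at 11792 bp. Among regions with a replicate 2 peak, a choice made after their values were seen, the best was chr9:114299211-114299773, with 58.26 in replicate 2, 102.51 after depilation and 191.79 after imiquimod.

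At the other end, regions with an embryonic peak reached down to the thresholds of the adult lists. The lowest was chr4:44677180-44677458, with 60.16 in replicate 1, 50.79 after depilation and 53.53 after imiquimod. Next came chr2:30720477-30720739 with 69.58, 50.8 and 54.68. The third, chr2:118745011-118745375, had its embryonic peak in replicate 2 (72.66) and scored 50.8 and 58.77 in the adult lists. Within their own lists the embryonic peaks stood at percentiles 35.91, 50.5 and 64.08, above both adult percentiles of the region in each case. The regions were chosen for their low adult percentiles, so this order is likely from the choice alone.

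The 67 regions without any E16.5 peak were fewer, narrower and lower ranked. Their median width was 343 bp, against 412 bp with a replicate 1 peak. Depilation scores had a median of 66.12 (50.1 to 266.13) and imiquimod scores one of 77.03 (52.42 to 220.23), at median percentiles of 61.39 and 59.17. Both medians lay above those of regions in a single injury, 37.98 and 41.51. Their imiquimod fold enrichment was no lower than in the others, with a median of 6.73 (interval of the median 6.34 to 7.41) against 6.67 (6.42 to 6.84) with a replicate 1 peak, while the tags per peak were fewer, 35 against 44. No Grhl3 library came from uninjured adult epidermis, and 2104 regions of depilation alone and 5546 of imiquimod alone also lacked an E16.5 peak. These 67 are the regions shared by both injuries that the lists place in treated adult epidermis and not in embryonic skin.

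Their nearest embryonic peaks lay at a median of 35.4 kb (quartiles 14.4 and 78.4 kb). For 8 of the 67, 11.9% (5.3 to 22.2), an E16.5 peak of either replicate lay within 1 kb. Regions of imiquimod alone without an E16.5 peak had one within 1 kb in 1.19% (0.922 to 1.51), and those of depilation alone in 4.04% (3.24 to 4.97). Within 50 kb the shares were 55.2% (42.6 to 67.4), 42.3% (41.0 to 43.6) and 46.0% (43.8 to 48.1). The closest case was chr2:92023274-92023651, 34 bp from a replicate 1 peak that is reproducible, with 61.74 after depilation and 70.71 after imiquimod. The absence of an embryonic peak there is thus an absence from the interval, at a place with one beside it.

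Among the regions without an embryonic peak, the one ranked best, chr12:75904766-75905590, scored 111.74 after depilation and 220.23 after imiquimod. It held 456 imiquimod tags at 4.39-fold, against a median of 35 tags in the 67. The second, chr18:56099006-56099386, scored 110.05 and 152.84 and held 140 tags at 6.19-fold. These 2 were the only ones of the 67 above percentile 90 in both adult lists. The third, chr14:60796193-60796629, ranked higher after depilation, with a score of 169.15 (percentile 98.13), than after imiquimod, with 108.62 (79.16), and held an ordinary 40 tags at 6.43-fold.

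The next regions split by the list that ranked them higher. The imiquimod percentile was the higher at chr11:104569299-104569711 (76.26 after depilation and 175.9 after imiquimod), at chr18:61195338-61196012 (72.1 and 201.42) and at chr4:107356108-107356552 (71.17 and 170.49). The depilation percentile was the higher at chr11:3661965-3662354 (125.71 and 97.7), at chr2:166821188-166821611 (128.3 and 91.77), at chr15:99500995-99501350 (138.11 and 86.77) and at chr11:98406981-98407319 (95.54 and 115.82). These 7 held 30 to 81 tags at 6.48-fold to 9.53-fold. The nearest E16.5 peak lay 12162 bp away at chr11:3661965-3662354 and 114982 bp away at chr4:107356108-107356552.

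The lowest regions without an embryonic peak had low scores in both injuries, nearest the limit in the imiquimod list. The region chr9:4753906-4754088 scored 53.57 after depilation and 52.66 after imiquimod with 18 tags, chr16:51476170-51476381 scored 56.77 and 52.42 with 20 tags, and chr17:86566970-86567231 scored 56.86 and 53.29 with 29 tags. Their FDR in the imiquimod list was 9.43% to 9.95%, but the peak with the highest score of that list, 249.45, had 10%. A high FDR therefore does not mark a faint peak there. By imiquimod score, at percentiles 1.87, 0.32 and 6.28, the 3 regions lie near the limit of that list. Their depilation percentiles were higher, 20.6, 35.46 and 35.68. Their imiquimod fold enrichments were 7.41, 7.15 and 5.73, beside a list median of 6.65.

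Imiquimod tags, known for that list alone, were more numerous in the shared regions than in those of imiquimod alone, at a like enrichment. The median was 42 tags (interval of the median 41 to 44) and 381 of 454 regions, 83.9% (80.2 to 87.2), exceeded the list's median of 29. Regions of imiquimod alone had a median of 26 tags, and regions in all 3 conditions 51. The imiquimod peaks were also of unequal width, with medians of 350.5, 250 and 400.5 bp in the shared, imiquimod-alone and all-3 regions. The median fold enrichment was 6.67 (6.42 to 6.82) in the shared regions, 6.46 (6.31 to 6.56) in all 3 conditions and 6.72 (6.67 to 6.78) in imiquimod alone. The fold is over the caller's background, which the labels do not describe.

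The highest fold enrichments were 12.75 at chr5:139605565-139605833, 12.44 at the chr4 region that ranked first and 11.5 at chr4:125167615-125168074. All 3 had a replicate 1 peak. The first had moderate scores, 57.73 in replicate 1, 89.15 after depilation and 96.11 after imiquimod, on 32 tags. The last scored 80.98 in replicate 1, 51.31 after depilation, barely above the floor of that list, and 171.38 after imiquimod.

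A few regions combined very many tags with little enrichment, as did a few in the other classes. More than 90 tags were found in 11 of 454 regions, and 5 of these had a fold under 5. In all 3 conditions the counts were 42 and 8 of 748 regions, and in imiquimod alone 31 and 9 of 6054. Of these 5, 3 were among the 67 without an embryonic peak, 1 among the 42 with a replicate 2 peak and 1 among the 345 with a replicate 1 peak. The lowest fold, 2.06, was at chr2:98503756-98504326, with 599 tags, a depilation score of 831.94, an imiquimod score of 59.77 and a replicate 2 score of 129.06. Next was chr9:3000350-3000745, with 98 tags at 3.03-fold and scores of 266.13 after depilation and 53.64 after imiquimod. A replicate 2 peak lay 61 bp from it. The region chr9:3029343-3029740 held 177 tags at 3.95-fold, with a replicate 2 peak at 374 bp. The third lowest fold, 3.7, was at chr6:47827735-47828136 on an ordinary 46 tags. The part of background signal or repeated sequence in these regions was not tested. Without the 11 regions of more than 90 tags there remained 443 regions, of which 63 had no E16.5 peak.

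**Figure D4:**
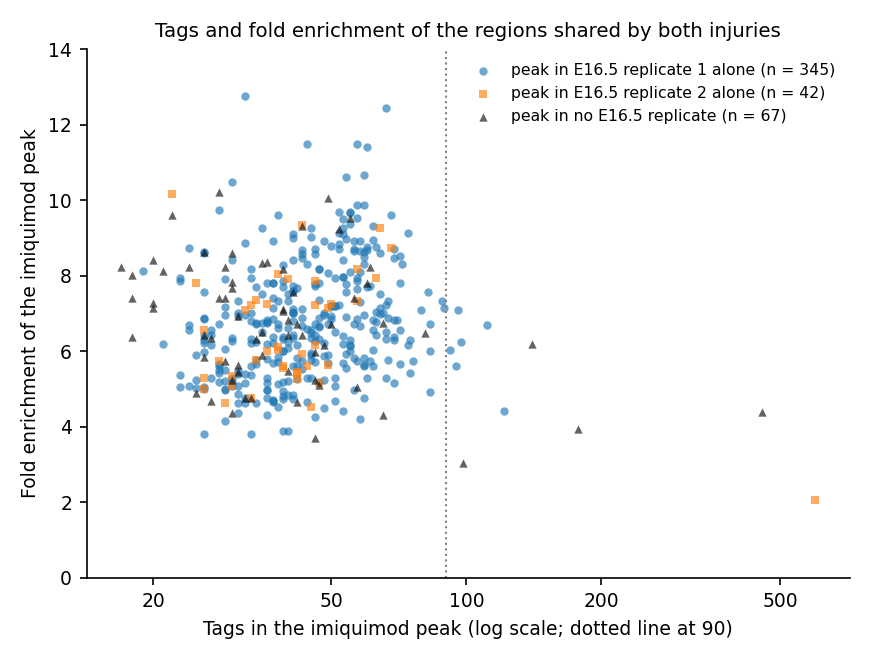
Fold enrichment (y axis) against tags (x axis, log scale) of the imiquimod peak in each of the 454 regions, marked by embryonic status; the dotted line is at 90 tags. Beyond the line lie 11 regions, among them 4 without an E16.5 peak (black triangles).

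The shared regions were scattered over all 19 autosomes. Chromosome 4 held the most, 41, and chromosome 16 the fewest, 14. Per 10 Mb of the span that peaks cover, chromosomes 19 (2.93), 11 (2.78) and 4 (2.69) were the densest and chromosome 7 (1.27) the sparsest. Regions in all 3 conditions were also dense on the first 3, at 4.83, 4.63 and 4.07, and had 2.88 on chromosome 7. The shared regions made up between 2.68% (chromosome 10) and 4.75% (chromosome 19) of all merged regions of a chromosome. Of the regions with depilation and imiquimod peaks, 37.8% (35.0 to 40.6) lacked a reproducible E16.5 peak. By chromosome this share ran from 29.1% (17.6 to 42.9) on chromosome 13 to 57.1% (39.4 to 73.7) on chromosome 18. Chromosome 18 was the only one where they outnumbered the regions in all 3 conditions, 20 against 15. Its interval excludes the share of all autosomes, and it is 1 of 19 intervals read without adjustment. The regions without any embryonic peak were on 18 of the autosomes, with 7 on chromosome 11 and 0 of 19 on chromosome 7.

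**Figure D5:**
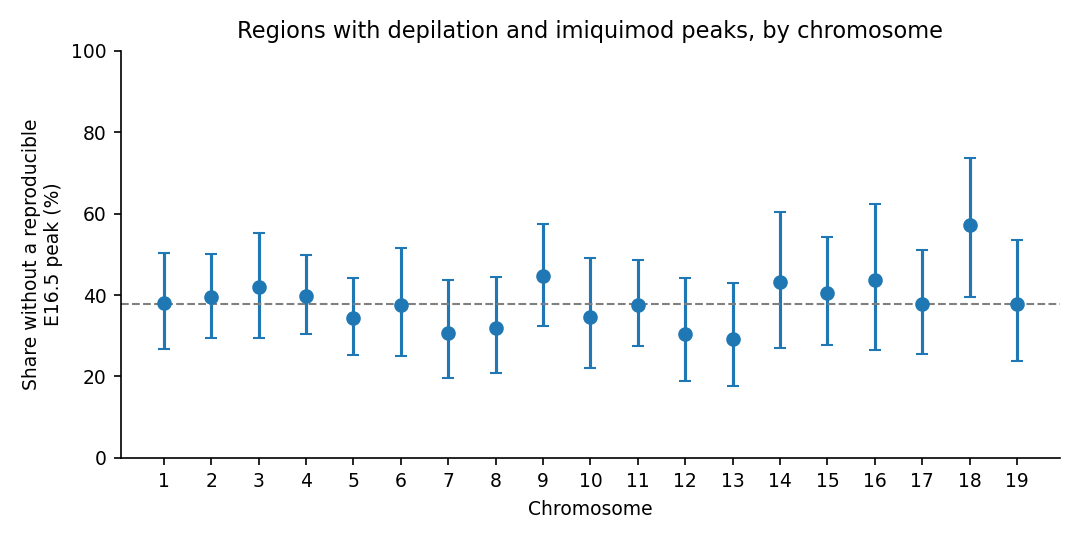
Share of the autosomal regions with depilation and imiquimod peaks that lack a reproducible E16.5 peak (y axis, %), by chromosome (x axis), with exact 95% binomial intervals; the dashed line is the share over all autosomes, 37.8%. Chromosome 18 stands highest at 57.1%, and the intervals of the other chromosomes include the dashed line.

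Most had no other shared region within 100 kb. In windows of 100 kb, 46 of the 454 regions formed 23 pairs, no window held 3, and 408 regions stood alone. No like count was made for other classes or for regions spread evenly, so whether these pairs are few or many was not tested. The pair with the highest mean percentile was at chr6:8459298-8459758 and chr6:8459877-8460357, which scored 111.1 and 100.8 after depilation and 121.31 and 228.29 after imiquimod, with replicate 1 scores of 63.83 and 86.97. The next was at chr14:122863370-122863918 and chr14:122874778-122875291, with replicate 1 scores of 130.11 and 98.65, depilation scores of 79.76 and 88.05 and imiquimod scores of 168.9 and 94.81. The third was at chr16:18586607-18587124 and chr16:18620902-18621447, with 98.07 and 131.42, 98.25 and 76.65, and 95.94 and 126.82 in the same order. All 6 had a replicate 1 peak. The median distance from a shared region to the nearest region in all 3 conditions was 729 kb, and to the nearest reproducible E16.5 peak 151 kb.

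Membership turned on small distances in few cases. Just inside the rule, the smallest overlaps of a depilation and an imiquimod peak were 8 bp at chr1:9787942-9788556, 18 bp at chr9:71959080-71959581 and 24 bp at chr9:65194132-65194697. Just outside it, the smallest gaps between regions of depilation alone and of imiquimod alone were 3 bp at chr15:17327765-17328132, 15 bp at chr2:144096192-144096746 and 18 bp at chr1:83286806-83287248. Within 100 bp there were 12 such pairs, and within 1000 bp 56. On the embryonic side, the replicates overlapped by as little as 12 bp at chr4:119212482-119212981, a region counted in all 3 conditions, and a region 37 bp from a reproducible peak, chr12:77470375-77470792, which has a replicate 1 peak of its own, was counted among the 454.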

How the data were processed

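Grhl3 ChIP-seq peak lists of 4 libraries were used as deposited. The genome build was mm9, and Bowtie 0.12.7 and bedtools 2.11.2 were among the tools, per the submitters' processing notes. Settings of the peak caller and its use of the inputs were not given in the sources used here. Each list belongs to 1 library per the labels. The deposited E16.5 and depilation lists give a score per peak. Per the file headers, the imiquimod list gives the authors' tag count, their fold enrichment (a ratio) and an FDR in percent. Its score column has lost its header and was read as the same score.

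Positions are 1-based on mm9, with BED starts raised by 1. Peaks counted as shared from 1 bp of overlap. A region took the highest scoring peak of each list. Percentiles are ranks within the whole list. Intervals are exact binomial (Clopper-Pearson), at 95%, and those of medians come from order statistics. They treat regions as independent.

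The regions and measures were chosen with earlier results of these data known. Named regions are the 10 highest and 3 lowest by mean adult percentile with 1 E16.5 replicate and with none, the 3 highest and 3 lowest by fold enrichment, and the 3 best pairs within 100 kb. Windows holding most regions all held 2, and ties were ordered by mean percentile. Regions of most tags, of replicate 2 and of best replicate 1 score were named after their values were seen. Genes, motifs and sequences were not analysed here, because no genome or annotation of mm9 was used. Merging was tested on simulated data with clear overlaps in well separated regions, without touching peaks or near misses. The overlap of the adult lists was checked with bedtools 2.31.1 (1265 depilation peaks by each). Calculations ran in Python 3.11.15 with pandas 2.3.3, scipy 1.17.1 and numpy 2.4.6. Alternatives changed the overlap, merging distance, score and FDR thresholds, the E16.5 set and the chromosomes.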

Additional observations from a re-analysis of the deposited data

How the results depend on the processing

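Of 82 alternative values, 67 stayed within the interval of the reported value (for counts, within 1.5 times), and 15 did not. The size of the set depended on which E16.5 peaks counted as embryonic. Without E16.5 replicate 2, so that any replicate 1 peak counts as embryonic, 109 regions remained in place of 454, against 435 without replicate 1. The 109 are the 42 regions with a replicate 2 peak alone and the 67 with none, so this count follows from the split. The median percentiles ranged from 60.79 to 76.27 for imiquimod and from 64.53 to 71.07 for depilation over these 2 settings, the median fold from 6.52 to 6.71 and the median distance of centres from 40.5 to 50.5 bp. Shares by embryonic replicate cannot be given there. With imiquimod peaks of an FDR of 5% or less there were 300 regions, 38 of them without an embryonic peak. This limit also drops peaks of high score, because FDR did not simply fall with score in that list. With the better scoring 50% of each list, 77.9% had a peak in 1 replicate and 71.1% in replicate 1, the median percentiles were 82.38 (imiquimod) and 81.03 (depilation), the fold 6.83 and the distance 61.25 bp. Removing peaks above the highest imiquimod score gave 519 regions, with replicate 1 in 66.5% and replicate 2 in 19.5% of them. Merging peaks closer than 1000 bp gave a distance of 62.5 bp. The causes were not tested. Leaving out regions of more than 90 tags was chosen after seeing the data. Motif and gene distance alternatives were not run. No paired analysis was possible because each adult condition has 1 library and no test was made. Depth is unknown, so an absent peak does not show an absence of binding.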

Other observations

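On chromosome X, which the autosomal rule leaves out, 2 regions met the other criteria. The region chrX:72913327-72913616 had no E16.5 peak and scored 75.57 after depilation and 86.56 after imiquimod, with 32 tags at 10.14-fold. The region chrX:166408210-166409773 had a replicate 1 peak (89.01) and scored 81.32 and 74.55, with 424 tags at 3.06-fold.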
